A study of Arabidopsis thaliana with 4 samples.

Results

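Indole glucosinolates and camalexin are sulfur-containing defence compounds that Arabidopsis makes from tryptophan. The description here covers 10 genes of that pathway, chosen by their identifiers from the 33602 genes in the deposited table. They are the transcription factor genes MYB34, MYB51 and MYB122, the shared entry enzymes CYP79B2 and CYP79B3, the glucosinolate enzymes CYP83B1, SUR1 and IGMT1, and the camalexin enzymes CYP71A13 and PAD3 (also called CYP71B15). The series asked which genes respond early to glutamate, by RNA sequencing of whole Arabidopsis thaliana seedlings of the Col-0 ecotype. All seedlings were 14 days old and had been grown in liquid half-strength MS salts that lacked nitrogen, in long days at 22 °C. The 2 control libraries came from seedlings in that medium at 0 h, and the 2 glutamate libraries from seedlings moved for 0.5 h to the same medium with 2.5 mM glutamate (Glu). No library came from seedlings moved to fresh medium without glutamate, so the move, the elapsed time and glutamate cannot be told apart.

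Both branches start from the same intermediate. CYP79B2 and CYP79B3 turn tryptophan into indole-3-acetaldoxime, which CYP83B1 directs to glucosinolates and CYP71A13 directs to camalexin. The 3 MYB factors switch on the glucosinolate branch, while WRKY33 is known as an activator of the camalexin genes.

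The libraries held 21776591 to 27674428 reads, recovered from the deposited values. Levels are RPKM, reads divided by gene length and by library size, with the libraries scaled to each other by the authors. All 5 shoot markers and all 5 root markers were detected in each library, and none was at 0. Summed shoot markers were at 12045 and 10543 RPKM in the control libraries and at 9330 and 7641 in the glutamate libraries. Summed root markers were at 461 and 322 RPKM in the controls and at 293 and 196 after glutamate. The root sum is mostly PYK10, itself a gene of the wider pathway list below, which made up 79.8% to 85.7% of it; the other 4 root markers summed to 73.4 and 58.5 RPKM, then 41.8 and 39.5. The root marker SCR did not move with them, at 10.8 and 8.97 RPKM and then 9.51 and 10.3. The largest shoot marker, RBCS1A, overlapped between the groups, at 6421 and 5496 RPKM and then 5930.5 and 4645. GAPA of the shoot list and CASP1 of the root list also overlapped. All markers except these and SCR were lower in both glutamate libraries than in either control library. The sums were lower after glutamate, and the part of this shift in the results below was not tested. In bulk RNA, fewer cells of a type and less RNA per cell cannot be told apart.

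After 0.5 h the MYB genes, the shared entry enzymes and CYP83B1 of the glucosinolate branch were higher. Neither SUR1 and IGMT1 of that branch nor the camalexin enzymes gave a call. Of the 10 genes, 9 reached the minimum mean of 1 RPKM and were tested, and 6 of these were higher: MYB34, MYB51, MYB122, CYP79B2, CYP79B3 and CYP83B1. SUR1, IGMT1 and PAD3 did not pass, and CYP71A13 was too low to test. The test was limma on log2(RPKM + 1) across all genes, with a call at a Benjamini-Hochberg adjusted p under 0.05. Across all genes, 16.3% of the 17750 tested genes were higher, 14.6% were lower and 30.8% were called in either direction. The members were chosen with earlier results of these data known, so their count beside these shares is a description only. The median log2 change was 0.88 over the 9 tested members and -0.06 over all tested genes. No tested member was lower in limma, with 0 at an unadjusted p under 0.05 and 0 by limma-voom on recovered reads. Without the filter on low values 1 member, CYP71A13, was lower at an unadjusted limma p under 0.05 but not at an adjusted one. Limma-voom was run only with the filter and did not cover CYP71A13. The count of 6 fell to 2 without the filter on low values and to 1 when libraries were aligned on the median of 10 control genes, a scaling that moved the median of all genes to -0.28. It was 6 again when the mean of the same control genes was used, a setting added after seeing the data. All 6 kept a positive log2 change under each of the 15 alternative settings tried, but most of these could not change the sign. Other filters, the intensity trend and a replicate block leave the estimate as it is. As the groups of these 6 genes do not overlap, dropping a library or changing the pseudocount cannot reverse it either.

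**Figure D1:**
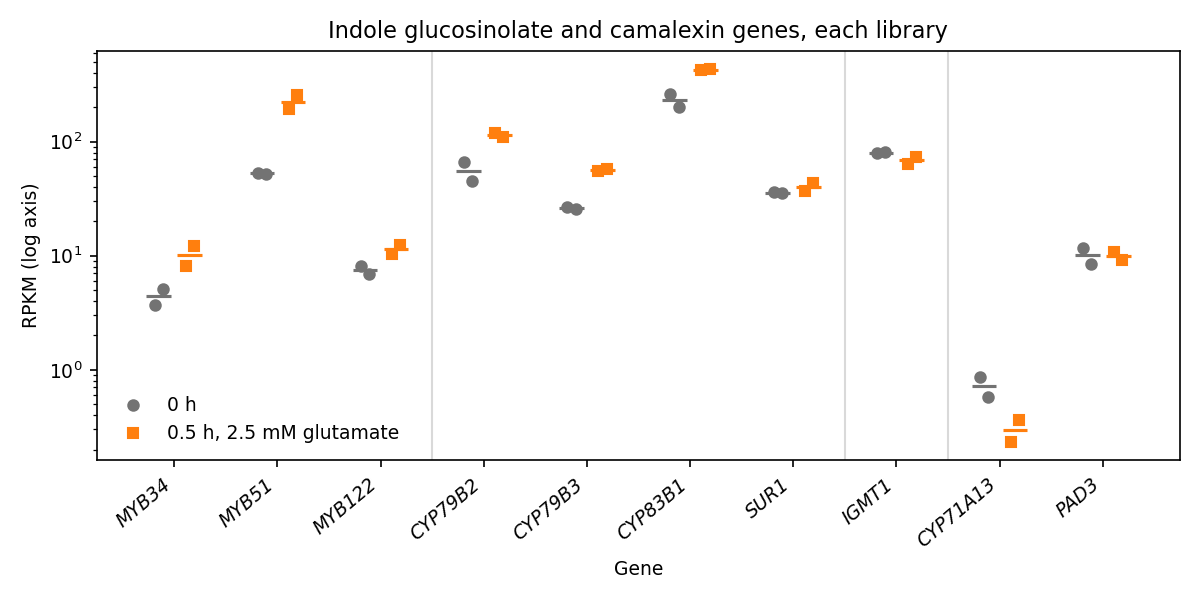
RPKM on a log axis for the 10 genes in each library, with grey circles for the 2 libraries at 0 h, orange squares for the 2 libraries after 0.5 h with 2.5 mM glutamate, and bars for the group means. Vertical lines part the MYB factors, the shared and core enzymes, IGMT1 and the camalexin enzymes. The glutamate points lie above the control points for the 3 MYB genes, CYP79B2, CYP79B3, CYP83B1 and, by a narrow margin, SUR1. They lie below for IGMT1 and CYP71A13 and overlap for PAD3. The share of all genes without overlap was not counted, so the separation is a description only.

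Among the 3 MYB factors, MYB51 (AT1G18570, chr1:6389399-6391386, plus strand, TAIR10.1) was the most abundant and changed most. It stood at 53.2 and 52.5 RPKM in the control libraries and at 192 and 257 RPKM in the glutamate libraries. Every glutamate value was over 3 times every control value, and the log2 change of 2.05 ± 0.17 (SE; limma adjusted p = 0.000683) was larger than that of 95.8% of tested genes. MYB34 (AT5G60890, chr5:24494291-24496371, plus strand), also known as ATR1, went from 3.67 and 5.14 RPKM to 8.11 and 12.1 RPKM. The groups did not overlap, and its log2 change was 1.03 ± 0.23 (limma adjusted p = 0.0234). The share of all genes whose groups do not overlap was not counted, so overlap is given here and below as description only. MYB122 (AT1G74080, chr1:27855578-27857598, plus strand), the third activator of this subgroup, was at 8.11 and 6.94 RPKM and then at 10.4 and 12.4 RPKM. Its change of 0.54 ± 0.15 lay just inside the threshold (limma adjusted p = 0.0448). Leaving out control replicate 2 raised the adjusted p to 0.15, leaving out glutamate replicate 1 to 0.061 and leaving out glutamate replicate 2 to 0.23, and library totals gave 0.11, so the call depends on these choices.

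The mix of the 3 MYB transcripts shifted towards MYB51. Summed over the 3 genes, the level was 65.0 and 64.6 RPKM at 0 h and 210.3 and 282 RPKM after glutamate. MYB51 made up 81.9% and 81.3% of that sum in the controls and 91.2% and 91.3% after glutamate. The ratio of MYB51 to MYB122 within a library, which does not depend on how libraries are scaled, was 6.56 and 7.57 at 0 h and 18.4 and 20.8 at 0.5 h. The ratio of MYB51 to MYB34 was 14.5 and 10.2, then 23.6 and 21.2. In both ratios the glutamate libraries lay above the control libraries. With 2 libraries against 2, an exact two-sided permutation test cannot give a p under 0.33, so ratios are given without a test.

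Both entry enzymes rose, to about the same extent. CYP79B2 (AT4G39950, chr4:18525042-18527602, plus strand) stood at 66.0 and 45.0 RPKM in the controls and at 120.1 and 109 RPKM after glutamate. CYP79B3 (AT2G22330, chr2:9488413-9491404, plus strand) went from 27.0 and 25.8 RPKM to 55.8 and 57.3 RPKM. Neither gene's groups overlapped, although the control libraries of CYP79B2 lay further apart than those of CYP79B3. Log2 changes were 1.06 ± 0.20 for CYP79B2 and 1.07 ± 0.12 for CYP79B3 (limma adjusted p = 0.0138 and 0.00175). The ratio of CYP79B2 to CYP79B3 was 2.45 and 1.75 at 0 h and 2.15 and 1.90 at 0.5 h, so the glutamate ratios lay between the control ratios; the difference between the 2 responses was not tested further.

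These 2 genes, on different chromosomes, are printed with the 300 bases before their annotated starts, because the windows hold a shared stretch. Capitals mark the longest ungapped run that both windows share with at most 1 mismatch. The sequences are from the RefSeq TAIR10.1 assembly, 5′ to 3′ on the gene's strand, at chr4:18524742-18525041 and chr2:9488113-9488412.
CYP79B2: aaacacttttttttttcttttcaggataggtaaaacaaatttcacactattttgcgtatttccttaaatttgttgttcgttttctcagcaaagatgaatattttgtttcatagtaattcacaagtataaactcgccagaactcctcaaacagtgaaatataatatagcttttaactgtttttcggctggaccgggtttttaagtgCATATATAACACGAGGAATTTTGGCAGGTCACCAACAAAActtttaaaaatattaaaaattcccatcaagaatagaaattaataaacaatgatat
CYP79B3: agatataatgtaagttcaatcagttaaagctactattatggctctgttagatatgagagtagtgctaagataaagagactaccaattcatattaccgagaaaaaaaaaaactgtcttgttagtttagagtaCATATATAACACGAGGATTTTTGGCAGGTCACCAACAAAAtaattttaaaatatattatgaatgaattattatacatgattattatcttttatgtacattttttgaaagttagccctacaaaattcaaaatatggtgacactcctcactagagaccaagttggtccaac
The run is 40 bases long and differs by A18T, counted from 1 at its 5′ end with the base of CYP79B2 first. It spans bases 95 to 56 before the start of CYP79B2 and bases 169 to 130 before that of CYP79B3. Its uninterrupted 22-base part, TTTTGGCAGGTCACCAACAAAA, occurred in 2 of the 27443 windows of this length before protein-coding genes, on either strand, which are those of CYP79B2 and CYP79B3. The next longest run between windows of any pair of members was 16 bases. The search for shared runs was chosen after the windows had been read, and it does not show that the stretch acts in the response.

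CYP83B1 (AT4G31500, chr4:15273410-15275404, minus strand), which commits the aldoxime to glucosinolates, was the most abundant of the 10 genes. It stood at 262 and 201.5 RPKM at 0 h and at 421 and 429.7 RPKM after glutamate, without overlap. Its log2 change was 0.88 ± 0.16 (limma adjusted p = 0.0120). SUR1 (AT2G20610, chr2:8877887-8880440, minus strand), the C-S lyase that follows further down, was at 35.9 and 35.4 RPKM and then at 36.8 and 43.6 RPKM. Its log2 change of 0.16 did not pass (limma adjusted p = 0.416), with a 95% interval from -0.17 to 0.50. The upper end of that interval lies below the estimate for CYP83B1; the difference between the genes was not tested. The ratio of CYP83B1 to SUR1 within a library was 7.31 and 5.69 in the controls and 11.4 and 9.85 after glutamate.

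The other core enzymes come from a wider list of 54 pathway genes, drawn up with earlier results of these data known. Of the 10 core genes, 7 were higher, and the 6 that are not members counted 4 higher (70% and 66.7%, beside 16.3% of all tested genes). SOT16 (AT1G74100), the sulfotransferase of the last step, was at 67.1 ± 8.58 RPKM (mean ± SD over 2 libraries, as for the levels that follow) and rose to 270.3 ± 24.8 RPKM. Its log2 change was 2.00. UGT74B1 (AT1G24100), the glucosyltransferase just before it, rose from 22.6 ± 2.88 to 50.8 ± 3.65 RPKM. SUR1 thus lies in the pathway between steps whose transcripts rose. The ratio of SOT16 to SUR1 was 2.04 and 1.72 at 0 h and 6.87 and 6.60 at 0.5 h.

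At the glutathione steps, related genes had different values. The glutathione transferase genes GSTF9 (AT2G30860) and GSTF10 (AT2G30870) lie side by side on chromosome 2, at chr2:13138882-13140392 and chr2:13141290-13142676. GSTF10 was at 257 and 270.2 RPKM in the controls and at 944 and 1035 RPKM after glutamate, a log2 change of 1.90 ± 0.13 (limma adjusted p = 0.000344). GSTF9, chosen after its value was seen, was at 772 and 736 RPKM and then at 598 and 657 RPKM, and did not pass (limma adjusted p = 0.192). It was lower with library totals, quantile normalization and the replicate number as a block (limma adjusted p = 0.046, 0.019 and 0.036). The order of the pair turned over: the ratio of GSTF10 to GSTF9 was 0.333 and 0.367 at 0 h and 1.58 and 1.57 at 0.5 h. GGP1 (AT4G30530), a gamma-glutamyl peptidase of the same stretch of the pathway, rose from 101 ± 2.12 to 276 ± 10.9 RPKM. The nearby copy GGP3 (AT4G30550) stood at 49.2 ± 4.50 RPKM at 0 h and 46.4 ± 0.164 RPKM at 0.5 h, with no call (limma adjusted p = 0.671).

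IGMT1 (AT1G21100, chr1:7386762-7388512, minus strand) methylates the hydroxylated indole ring of finished indole glucosinolates. It stood at 78.7 and 81.7 RPKM at 0 h and at 64.1 and 72.9 RPKM after glutamate. The groups did not overlap, but the log2 change of -0.23 did not pass (limma adjusted p = 0.245; 95% interval -0.55 to 0.09). With quantile normalization it was lower (adjusted p = 0.032). IGMT1 lies in a row of 4 copies with IGMT3, IGMT2 and IGMT4, all on the minus strand between positions 7386762 and 7400736 of chromosome 1. The deposited fraction of shared reads is 0.164 for IGMT1, 0.366 for IGMT2, 0.423 for IGMT3 and 0.194 for IGMT4, so levels of the single copies are uncertain. Summed over the 4 copies the level was 672 and 596 RPKM in the controls and 833 and 855 RPKM after glutamate, without overlap. IGMT1 gave 11.7% and 13.7% of that sum at 0 h and 7.70% and 8.53% at 0.5 h.

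IGMT4 (AT1G21130), the most abundant copy, had a log2 change of 0.47 ± 0.13 (limma adjusted p = 0.0481), and it missed the threshold when any one of the 4 libraries was left out (adjusted p = 0.094 to 0.26). IGMT3 (AT1G21110) rose from 18.9 ± 3.03 to 38.0 ± 5.17 RPKM. IGMT2 (AT1G21120), at 60.6 ± 8.23 RPKM before and 80.5 ± 9.19 RPKM after, was not called (limma adjusted p = 0.112). IGMT5 (AT1G76790), elsewhere on the chromosome, was at 2.80 ± 0.729 and 2.88 ± 0.126 RPKM.

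The hydroxylase that acts before the IGMT enzymes had a larger estimated change than any of the 10 genes. CYP81F2 (AT5G57220, chr5:23187840-23189902, plus strand), known for its part in pathogen defence, was at 45.6 and 38.9 RPKM and then at 233 and 239 RPKM. The groups did not overlap, and the log2 change was 2.46 ± 0.13 (limma adjusted p = 0.000168). The ratio of CYP81F2 to IGMT1 was 0.579 and 0.476 at 0 h and 3.64 and 3.27 at 0.5 h. CYP81F4 (AT4G37410) rose from 6.59 ± 0.126 to 14.5 ± 2.43 RPKM, but 0.925 of its reads are marked as shared. CYP81F1 (AT4G37430), with a shared fraction of 0.964, did not pass (limma adjusted p = 0.315), but was higher without glutamate replicate 1 (adjusted p = 0.021). CYP81F3 (AT4G37400), with means of 0.440 and 0.824 RPKM, was below the minimum.

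The camalexin enzymes were among the lowest of the 10 genes at 0.5 h. PAD3 (AT3G26830, chr3:9887917-9889791, plus strand), which makes camalexin in the last step, was at 11.6 and 8.44 RPKM at 0 h and at 10.7 and 9.24 RPKM after glutamate. Both glutamate values lay between the control values, and the log2 change was 0.00 (limma adjusted p = 0.991; 95% interval -0.46 to 0.46). CYP71A13 (AT2G30770, chr2:13109909-13111988, minus strand), which turns the aldoxime into indole-3-acetonitrile, was at 0.870 and 0.574 RPKM and then at 0.234 and 0.362 RPKM. The glutamate values lay below the control values. They rest on 40.4 and 23.1 recovered reads in the controls and on 7.1 and 13.0 after glutamate, and the gene lay under the minimum for the test. A level of 3 reads would correspond to 0.0638 to 0.0930 RPKM at its length. Its near copy CYP71A12 (AT2G30750), near it on chromosome 2, had 24.4 ± 7.26 RPKM at 0 h and 21.1 ± 0.528 RPKM at 0.5 h and was not called (limma adjusted p = 0.596). CYP71A18 (AT1G11610) was below the level of 3 reads in each library.

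Set against PAD3 within each library, CYP79B2 and CYP83B1 were higher after glutamate, while SUR1 and IGMT1 overlapped between the groups. The ratio of CYP79B2 to PAD3 was 5.67 and 5.33 at 0 h and 11.2 and 11.8 at 0.5 h. The ratio of CYP83B1 to PAD3 was 22.5 and 23.9, then 39.2 and 46.5. Both ratios differed little between libraries of a group, and the groups did not overlap. The ratio of SUR1 to PAD3 was 3.08 and 4.20 at 0 h and 3.43 and 4.72 at 0.5 h, and that of IGMT1 to PAD3 was 6.76 and 9.69, then 5.98 and 7.89. PAD3 does not stand for the whole branch: against GSTF6, a glutathione transferase gene placed in it, CYP83B1 was at 0.271 and 0.237 and then at 0.250 and 0.219, with overlap. Of the 6 tested genes of the camalexin and the related cyanogenic branch, 2 were higher and none lower in limma (0 lower at an unadjusted p under 0.05 and 0 by limma-voom). Without the filter on low values, 2 genes of this group were lower at an unadjusted limma p under 0.05, and none at an adjusted one. Limma-voom was run only with the filter. The 2 higher genes are 33.3% of the 6, beside 16.3% higher and 30.8% called in either direction among all tested genes, and 6 genes are few for such a share. GSTF6 (AT1G02930) rose from 909 ± 81.3 RPKM to 1824 ± 202 RPKM, although a fraction of 0.156 of its reads is shared. The other was FOX1 (AT1G26380), an oxidase gene of the cyanogenic branch chosen after its value was seen, with a log2 change of 0.61. For FOX1 the adjusted p was 0.16 when control replicate 2 was left out, 0.093 when glutamate replicate 1 was and 0.083 when glutamate replicate 2 was.

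**Figure D2:**
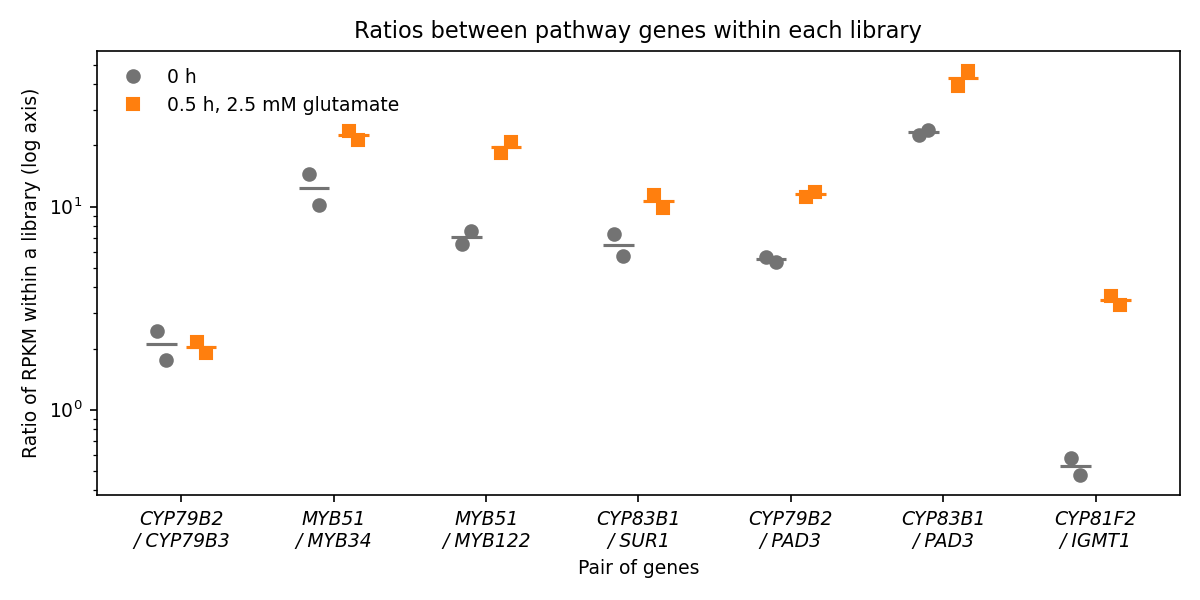
Ratio of the RPKM of 2 genes within each library, on a log axis, with grey circles for 0 h, orange squares for 0.5 h with glutamate and bars for the group means of 2 libraries. The ratio of CYP79B2 to CYP79B3 overlaps between the groups, while the other 6 ratios are higher in both glutamate libraries, from 0.476 and 0.579 to 3.27 and 3.64 for CYP81F2 over IGMT1.

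WRKY33 (AT2G38470), the known activator of CYP71A13 and PAD3, was itself higher. It rose from 56.7 and 40.2 RPKM to 529 and 419 RPKM, a log2 change of 3.28 ± 0.21 (limma adjusted p = 0.000303). MYC2 (AT1G32640), a jasmonate factor that works together with the MYB activators, rose from 12.5 and 11.9 RPKM to 147 and 143 RPKM. Of its relatives, MYC3 (AT5G46760) was at 34.2 ± 4.54 RPKM before and 32.7 ± 4.18 RPKM after, and MYC4 (AT4G17880) was lower, with a log2 change of -0.83. OBP2 (AT1G07640), a DOF factor linked to CYP83B1, rose from 9.12 ± 2.16 to 19.5 ± 3.09 RPKM. NAC042 (AT2G43000), linked to camalexin induction, was lower, at 18.9 and 21.1 RPKM in the controls and 9.10 and 12.6 RPKM after glutamate. MYC3, MYC4 and NAC042 were chosen after their values were seen. The adjusted p of MYC4 was 0.096 when control replicate 1 was left out and 0.15 when glutamate replicate 2 was, and that of NAC042 was 0.060 when glutamate replicate 1 was left out.

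Across the wider list, 49 of 54 genes were tested, 26 were higher and 2 lower in limma, beside 16.3% and 14.6% of all tested genes. This is 53.1% and 4.08% of those tested, and the list was drawn up with earlier results of these data known. The 40 tested genes that are not members counted 20 higher and 2 lower. With quantile normalization the list had 21 higher and 7 lower genes, against 10 higher and 2 lower with the control-gene median and 12 higher and none lower without the filter (26 and 3 at an unadjusted p under 0.05). Leaving out 1 library gave 20 to 23 higher and 1 to 3 lower, the count of lower genes being 1 if control replicate 1 or glutamate replicate 2 was dropped and 3 if control replicate 2 was. At the tryptophan end, 3 of 8 synthesis genes (37.5%) were higher, with log2 changes from 0.47 to 0.70. These were ASA1 (AT5G05730) and ASB1 (AT1G25220), the subunits of the first committed enzyme, and TSB2 (AT4G27070), all chosen after their values were seen. The shared fraction of ASB1 is 0.315. All 3 lost the call with library totals (limma adjusted p = 0.072, 0.082 and 0.099 in that order), with control-gene medians and without the filter on low values. ASA1 and ASB1 also lost it with quantile normalization (limma adjusted p = 0.079 for both). ASA1 missed the threshold if control replicate 2 or glutamate replicate 2 was dropped (adjusted p = 0.11 in both cases), ASB1 if control replicate 1 (0.088) or glutamate replicate 2 (0.12) was, and TSB2 if any one library was (0.12 to 0.19). Downstream of synthesis, 4 of 7 tested genes of breakdown and transport (57.1%) were higher. The importer genes GTR1 (AT3G47960) and GTR2 (AT5G62680) rose from 12.0 ± 1.58 to 34.1 ± 6.57 and from 36.1 ± 5.44 to 70.8 ± 10.9 RPKM, the second chosen after its value was seen. The exporter gene PEN3 (AT1G59870) rose from 220.1 ± 77.1 to 583 ± 108 RPKM, and PCS1 (AT5G44070), a phytochelatin synthase that also processes indole glucosinolate products, from 41.8 ± 10.5 to 167 ± 17.5 RPKM. PEN2 (AT2G44490), the atypical myrosinase that opens indole glucosinolates in this defence and chosen after its value was seen, had 231 ± 35.0 RPKM before and 197 ± 12.9 RPKM after and was not called (limma adjusted p = 0.341). PYK10 (AT3G09260), also chosen after its value was seen, had 326 ± 87.8 and then 204 ± 66.7 RPKM and was not called (limma adjusted p = 0.136). Both were lower with quantile normalization (limma adjusted p = 0.040 for PEN2 and 0.045 for PYK10). PYK10 was also lower with the replicate block (limma adjusted p = 0.00038).

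**Figure D3:**
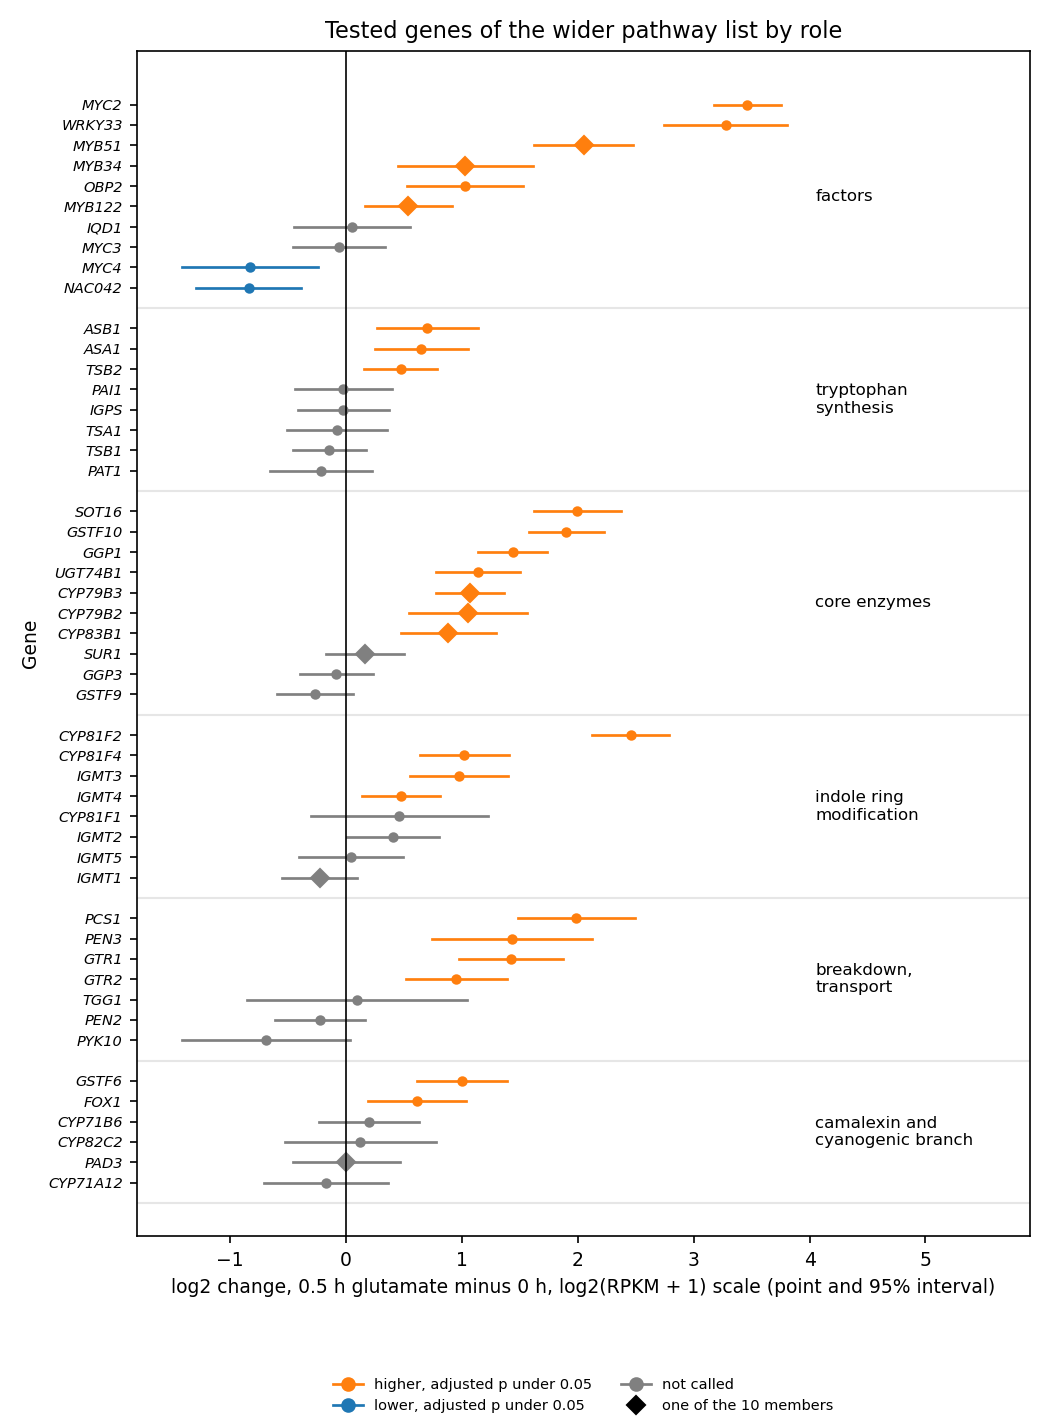
Log2 change on the log2(RPKM + 1) scale, 0.5 h with glutamate minus 0 h, with its 95% interval from limma, for the 49 tested genes of the wider list, grouped by role. Diamonds mark members, orange marks the 26 higher genes, blue the 2 lower genes and grey the genes not called. The largest changes are those of MYC2 and WRKY33 among factors and CYP81F2 among enzymes, and PAD3, SUR1 and IGMT1 lie near 0.

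Promoter windows were also read for letters that stress and jasmonate factors bind. The W box was searched as TTGACC or TTGACT, the G box as CACGTG and the core of the rapid stress response element as CGCGTT, each on both strands of the 300 bases before the start. The 6 higher members had none of the 3 motifs in this window, while SUR1 and IGMT1 had 1 W box each and SUR1 also a G box. A W box was present in 2 of 10 members, in 16 of the 26 higher genes of the wider list (61.5%), in 11 of the other 28 (39.3%) and in 32.3% of the 27443 windows of all protein-coding genes. The other 28 include the 5 genes too low to test, none of which had a W box, so the shares are not of genes at like levels. The 27443 windows also include genes that were not tested. The neighbouring copies IGMT1 to IGMT4 had 1 W box each and are not independent windows. A G box was in 2 of the 26 higher genes (7.7%) and in 7.1% of all windows, and CGCGTT in 1 of the 26 (3.8%) and in 3.1% of all windows. The windows of SUR1, a member that did not pass, and CYP81F2, which rose most among the enzymes, are shown with these motifs in capitals, from TAIR10.1 at chr2:8880441-8880740 on the minus strand and chr5:23187540-23187839 on the plus strand.
SUR1: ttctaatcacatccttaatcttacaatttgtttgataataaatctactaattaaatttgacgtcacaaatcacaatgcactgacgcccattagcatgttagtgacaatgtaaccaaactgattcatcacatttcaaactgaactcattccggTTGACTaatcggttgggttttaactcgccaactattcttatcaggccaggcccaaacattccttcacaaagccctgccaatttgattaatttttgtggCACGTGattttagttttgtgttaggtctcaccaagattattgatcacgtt
CYP81F2: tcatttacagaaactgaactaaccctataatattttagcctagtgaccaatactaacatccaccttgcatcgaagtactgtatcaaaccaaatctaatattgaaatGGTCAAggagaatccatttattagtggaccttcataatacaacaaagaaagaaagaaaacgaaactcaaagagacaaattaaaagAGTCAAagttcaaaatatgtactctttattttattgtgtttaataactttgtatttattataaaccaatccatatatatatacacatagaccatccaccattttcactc
In SUR1 the W box starts 148 bases and the G box 50 bases before the annotated start. In CYP81F2 both W boxes lie on the other strand, beginning 194 and 109 bases before the start. A match in these letters is a description of the window and shows no binding.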

How the data were processed

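Per the labels' protocols, total RNA came from a Trizol extraction and libraries from a TruSeq kit. All 4 libraries carry one batch label. The submitters' processing notes name the TAIR10 build and SAMtools; the sources used here do not give the aligner, the counter or the use of strand. The authors deposited 1 RPKM value per gene and library, in a table named for TMM normalization, with gene lengths. Their deposited fraction maxMultiRatio, which the header does not define, is taken here for the proportion of reads a gene shares with other places.

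Multiplied by length, the RPKM of each library fall on one lowest value and its odd multiples, as reads plus 0.5 over an effective library size would. Recovered reads were whole within 0.01 for 85.4% to 86.2% of genes, and for 100% of genes with a fraction of 0. At this depth 3 reads in 1 kb are worth 0.104 to 0.152 RPKM, for counting error only.

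Values were transformed to log2(RPKM + 1), which understates changes of low genes, and the 17750 genes that averaged 1 RPKM or more over the libraries were fitted with limma 3.58.1 in R 4.3.3, two-sided, with an intensity-dependent variance prior worth 3.49 degrees of freedom beside 2 residual ones. The steps were tested on simulated data. Replicates differed beyond counting noise (chi-square per degree of freedom 32.0 and 27.6). Whether the replicates were separate cultures is not in the labels, so the p-values reflect only how these libraries vary, possibly for technical reasons.

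The members, the 54-gene wider list, the control genes and the markers were chosen with earlier results of these data known. The text names all members, called genes of the wider list with a log2 change of at least 1 in size and genes listed in the naming rule as related to members (CYP71A12, CYP71A18, IGMT2 to IGMT5, CYP81F1 to CYP81F4, GGP3, UGT74B1 and SOT16), and marks other genes as chosen after their values were seen. Positions and sequences come from RefSeq TAIR10.1, which held all 54 genes.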

Additional observations from a re-analysis of the deposited data

How the results depend on the processing

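The precision rests on 2 libraries a group. The 6 higher members kept their direction in each of the 15 alternatives, though only those that rescale the libraries could have reversed it. MYB51 also kept its call in each alternative. The other 5 lost theirs in 1 to 6 alternatives, with control-gene medians in each case. Of 135 values of members under alternatives, 119 kept their side of the threshold, 14 lost it and 2 passed it. Higher members numbered 2 without the filter and 1 with control-gene medians; 1 member, IGMT1, was lower with quantile normalization and with the replicate block. In the wider list the higher genes numbered 12 without the filter and 10 with control-gene medians. Its lower genes numbered 0 without the filter, 1 with a pseudocount of 0.1, 7 with quantile normalization, 5 with the replicate block and 1 with control-gene means. Among all genes 1335 were lower without the filter, 4361 lower with library totals (2450 higher, 36% of calls against 52.8% as deposited) and 1705 higher with control-gene medians. The cause was not tested. The filter itself changes the number of genes tested. Control-gene medians shifted the 2 control libraries apart, by -0.36 and 0.11 on the log2 scale, and the control-gene means, added after seeing the data, by 0.02 and 0.07. The median change of all genes was -0.23 with library totals, -0.15 with quantile normalization, -0.28 with control-gene medians and 0.02 with control-gene means. Leaving out 1 library gave 5 to 6 higher members, 20 to 23 higher and 1 to 3 lower genes of the wider list, and 2490 to 2727 higher and 1741 to 2072 lower genes in all; the lone library left is assumed to vary like the other group. With the replicate number as a block, 4445 genes were higher and 5280 lower. Same-numbered libraries deviated together (r = 0.60 across genes), but the labels tie nothing to the numbers, so the block is not used as a pairing.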
